A study of Mus musculus with 6 samples.

Results

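Scavenger and efferocytosis receptors are the surface proteins and soluble adaptors with which macrophages take up modified lipoproteins, fatty acids, microbes and dying cells. The 9 genes described here are Msr1, Marco, Cd36, Scarb1, Mertk, Axl, Cd5l, Mfge8 and Olr1, chosen by name from the 24421 genes of the deposited expression table, and all 9 were found there. RNA sequencing was done on macrophages sorted from the visceral white adipose tissue of male C57BL/6N mice, described as 12 weeks old and fed a high-fat diet with 60% of its calories from fat. Over 30 days, each mouse was injected under the skin at intervals of 6 days. The vehicle group (EtOH) received ethanol, and the other 2 groups received 10 mg/kg estradiol (E2) or 10 mg/kg 4-hydroxyestrone (4-OHE1). Each of the 3 groups has 2 libraries, 6 in all. The sort gate took live cells labelled F480+ CD11b+. All groups shared the diet, the sex and the strain, and no group on a normal diet is part of these comparisons. E2 is the main circulating estrogen, and 4-OHE1 is a catechol estrogen, which carries a further hydroxyl group on the aromatic ring and a ketone where estradiol has its hydroxyl group on the D ring. Whether replicate libraries stem from separate animals is not given in the labels, so p-values measure only the spread between libraries, which may be technical.

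Class A scavenger receptors such as Msr1 and Marco bind modified lipoproteins and bacteria, and class B receptors such as Cd36 and Scarb1 carry fatty acids and cholesterol across the membrane. The receptor kinases Mertk and Axl recognise dying cells through the bridging proteins Gas6 and Pros1, which bind phosphatidylserine exposed on those cells, and the soluble protein Mfge8 links the same lipid to integrins. In obese adipose tissue, macrophages gather around dying adipocytes and take up their lipid.

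Levels are given as RPKM, the reads of a gene per kilobase of transcript and per 1000000 sequenced tags. The share of tags that fell in exons was 84.6% and 85.1% in the EtOH libraries, 75.8% and 72.4% in the E2 libraries and 62.5% and 60.8% in the 4-OHE1 libraries, so that the deposited RPKM of a gene with an unaltered share of exon reads was lower in the estrogen groups. Malat1, a nuclear RNA, stood at 198 to 200.1 RPKM under EtOH, 359 to 506 under E2 and 853 to 985 under 4-OHE1. Each test was therefore run on RPKM as deposited and on RPKM rescaled to exon reads, and a gene was called changed only when its adjusted p was under 0.05 in both, in the same direction. Log2 changes are differences of log2(RPKM + 1) on the exon-read scale, which understates the change of low genes, and the adjusted p is the larger of both. Exon reads ranged from 4515276 to 35293924 per library, and both EtOH libraries were sequenced more deeply than the other 4. All 7 macrophage markers in the table, among them Adgre1 and Itgam, which encode the sorted antigens, were above 0 in every library. Their summed level as deposited was 8568 to 8703 RPKM under EtOH, 5924 to 6170 under E2 and 4364 to 4453 under 4-OHE1. Per exon reads it was 8594 to 8677, 6903 to 6939 and 6043 to 6086 in the same order. As deposited, Lyz2 alone made up 5725 and 5806 RPKM under EtOH, 3754 and 3585 under E2 and 2381 and 2350 under 4-OHE1. Adgre1 went from 301 and 305 RPKM under EtOH to 178 and 166 under E2 and 144 and 134 under 4-OHE1, and was called lower under both. Mrc1 stood at 453 and 451 RPKM under EtOH, 380 and 418 under E2 and 469 and 478 under 4-OHE1. Of the 7 markers, 0 were called higher and 2 lower under E2, and 0 higher and 4 lower under 4-OHE1. Over all genes tested, 1.75% were higher and 2.17% lower under E2, and 5.74% and 13.9% under 4-OHE1.

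Marco, Cd5l and Mertk carried the calls that were made under each of the 14 alternative analyses, Marco under E2 and the other 2 under 4-OHE1, and the 250 bases before the start of each are shown for that reason. The sequences are from RefSeq on build GRCm38.p6, which is not the build of the expression files, at chr1:120505025-120505274 on the minus strand for Marco, chr3:87357631-87357880 on the plus strand for Cd5l and chr2:128698665-128698914 on the plus strand for Mertk. Capitals mark the letters AGAGGAAG on either strand, a sequence bound by PU.1, the myeloid transcription factor encoded by Spi1.
Marco: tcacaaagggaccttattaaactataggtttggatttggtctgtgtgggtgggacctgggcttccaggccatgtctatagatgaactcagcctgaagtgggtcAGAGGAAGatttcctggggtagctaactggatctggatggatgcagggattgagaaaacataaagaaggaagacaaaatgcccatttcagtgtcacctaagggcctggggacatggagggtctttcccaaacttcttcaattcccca
Cd5l: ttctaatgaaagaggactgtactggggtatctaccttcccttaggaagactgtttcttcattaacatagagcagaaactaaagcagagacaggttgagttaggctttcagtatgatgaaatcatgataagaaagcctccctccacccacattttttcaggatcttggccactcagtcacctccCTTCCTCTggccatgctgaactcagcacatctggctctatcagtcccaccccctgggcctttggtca
Mertk: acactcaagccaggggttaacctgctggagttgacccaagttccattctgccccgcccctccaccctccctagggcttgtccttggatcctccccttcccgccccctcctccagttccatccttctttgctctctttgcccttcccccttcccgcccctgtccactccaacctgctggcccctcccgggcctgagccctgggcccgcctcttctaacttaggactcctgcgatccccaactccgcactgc
The PU.1 letters began 147 bases before the start of Marco and, on the opposite strand, 67 bases before the start of Cd5l. Within 250 bases before to 50 bases after the start, 4.55% of 32851 mouse promoters hold them. GC content was 47.6% for Marco, 46.8% for Cd5l and 63.6% for Mertk. Of the 9 genes, 7 had an entry in the promoter table, all but Msr1 and Scarb1. Searched on both strands in these 7 windows were also the estrogen response element GGTCANNNTGACC, its arm AGGTCA, the glucocorticoid response element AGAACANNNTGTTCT, its arm AGAACA, the LXR element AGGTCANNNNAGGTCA and the AP-1 site TGANTCA. The arm AGGTCA, which also lies within the LXR element and overlaps the estrogen element, matched in Cd36 and Olr1 and in 16.3% of all promoters. Cd36 was measured on 2 transcripts with different starts, at 17355610 and 17341714 on the minus strand of mm9. Only 1 window was searched for Cd36. The AP-1 letters matched in Olr1 and in 7.81% of all promoters, and the other motifs matched in none of the 7.

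**Figure D1:**
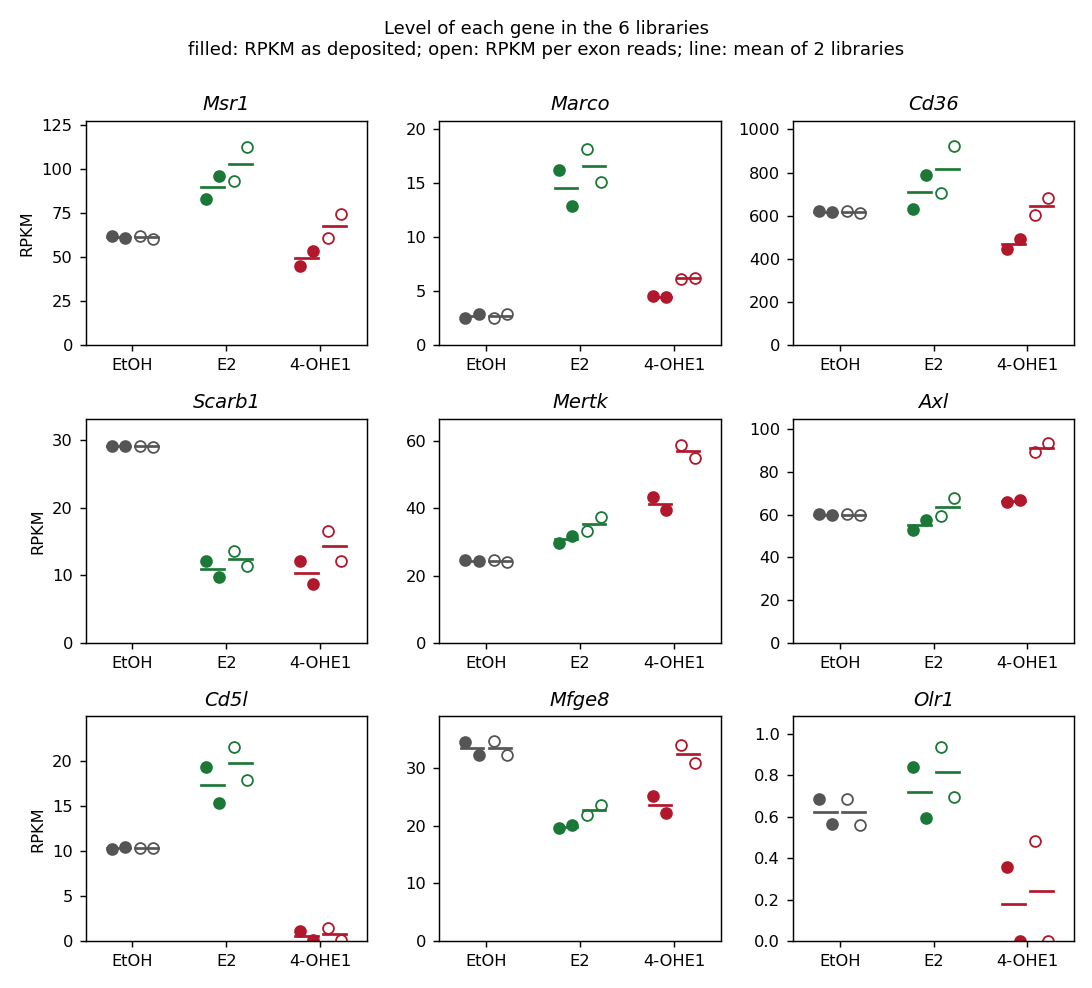
Level of each of the 9 genes in the 6 libraries. Each panel has its own linear axis in RPKM; filled points are deposited values, open points are values per exon reads, and lines are means of 2 libraries. Marco stands highest under E2, Scarb1 is lower in both estrogen groups, Mertk is highest under 4-OHE1 and Cd5l is near 0 under 4-OHE1.

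Across the 9 genes, Cd36 had the highest level in each group, with a mean of 618 RPKM under EtOH, 709 under E2 and 468 under 4-OHE1. Under EtOH it was followed by Msr1 at 61.2 ± 0.763 RPKM (SD, n = 2) and Axl at 60.0 ± 0.305, which lay within 2 RPKM of each other, and then by Mfge8, Scarb1, Mertk, Cd5l, Marco and Olr1. Mertk moved from the sixth place under EtOH to the fourth in both estrogen groups. Under E2, Cd5l at 17.3 ± 2.83 RPKM stood above Marco at 14.6 ± 2.32 within each library, although their ranges over the 2 libraries overlapped. Under 4-OHE1, Axl at 66.4 ± 0.835 RPKM stood above Msr1 at 49.2 ± 6.06, and Cd5l had dropped below Marco.

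Of the 9 genes, 8 passed the filter of a mean of 1 RPKM over the 6 libraries. Cd5l passed through its EtOH and E2 levels, and Olr1 did not pass. In each of the 3 comparisons, 4 of the 8 were called. Under E2 against EtOH, Marco and Msr1 rose and Scarb1 and Mfge8 fell, where 3.93% of the 10950 genes tested were called, 1.75% higher and 2.17% lower. For 4-OHE1 against EtOH, Mertk and Marco rose and Cd5l and Scarb1 fell, where 19.6% of all genes were called, 5.74% higher and 13.9% lower. Between the estrogens, Mertk was higher and Cd5l, Marco and Msr1 were lower under 4-OHE1 than under E2, where 9.64% of all genes were called, 2.5% higher and 7.14% lower. The members were named with earlier results of these data known, so these shares describe the members and are no test of them. Over all genes tested, the median log2 change per exon reads was -0.00 for E2 and -0.04 for 4-OHE1, against -0.18 and -0.44 as deposited.

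**Figure D2:**
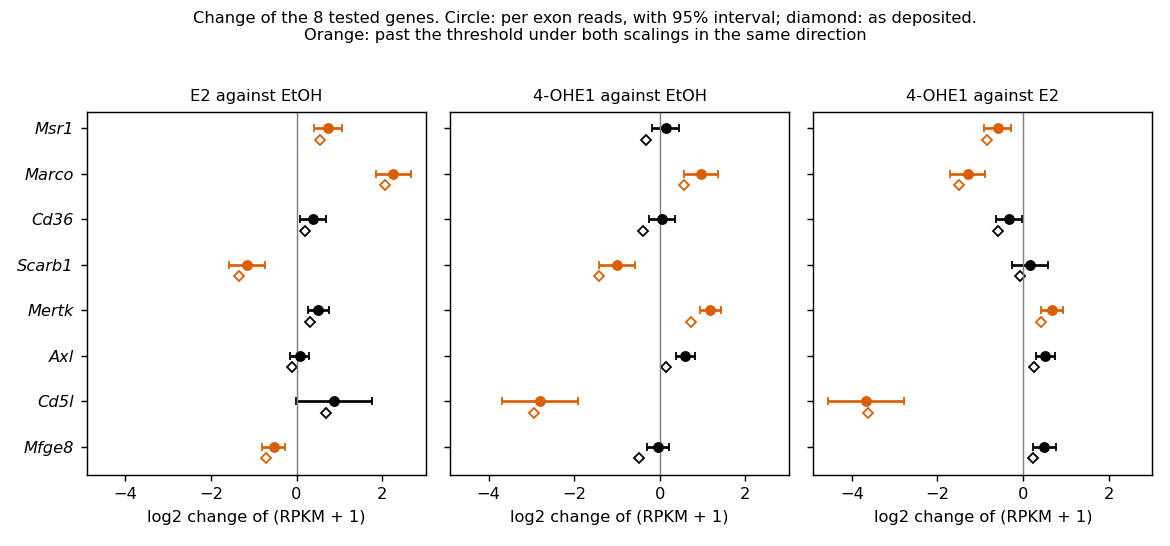
Log2 change of the 8 tested genes in the 3 comparisons. The x axis is the difference of log2(RPKM + 1); circles with 95% intervals are per exon reads, diamonds are as deposited, and orange marks genes called under both. Scarb1 lies left of 0 in both comparisons with EtOH, and Cd5l lies far left of 0 in both comparisons of 4-OHE1.

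The class A scavenger receptors were highest under E2. Marco, a receptor for bacteria and particles that is known from resident macrophages, is annotated at chr1:122371115-122401661 on the minus strand of mm9. Its level was 2.46 and 2.91 RPKM in the EtOH libraries, 16.2 and 12.9 in the E2 libraries and 4.52 and 4.45 in the 4-OHE1 libraries. The 3 groups did not overlap, with E2 highest and EtOH lowest. Marco rose by 2.26 (SE 0.17) under E2, with an adjusted p of 0.0024, the 23rd largest rise of the 10950 genes tested. Under 4-OHE1 it rose by 0.96 (SE 0.17; adjusted p = 0.0354), and by 0.58 as deposited. It was lower under 4-OHE1 than under E2 by -1.29 (SE 0.17; adjusted p = 0.00777). These values rest on 107 and 237 reads under EtOH, 225 and 197 under E2 and 82 and 65 under 4-OHE1. The rise under 4-OHE1 was not called without EtOH replicate 1 (adjusted p = 0.235) or EtOH replicate 2 (0.134), nor with no filter on low values (0.0669), and the difference between the estrogens was not called without E2 replicate 1 (0.0643).

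Msr1, the class A receptor for acetylated lipoproteins, is annotated at chr8:40667054-40728032 on the minus strand. Its level was 61.7 and 60.6 RPKM under EtOH, 83.2 and 96.1 under E2 and 44.9 and 53.5 under 4-OHE1. Both E2 libraries lay above the other 4, while the order of EtOH and 4-OHE1 depended on the scale, since per exon reads the 4-OHE1 libraries stood at 61.0 and 74.6. Msr1 rose under E2 by 0.73 (SE 0.13; adjusted p = 0.0453). Against EtOH, 4-OHE1 gave a log2 difference of 0.14 with a 95% interval of -0.18 to 0.46 per exon reads and -0.31 as deposited, and it was not called. Msr1 was lower under 4-OHE1 than under E2 by -0.59 (SE 0.13; adjusted p = 0.0377). The call under E2 was lost without EtOH replicate 1, EtOH replicate 2, E2 replicate 1 or E2 replicate 2, at adjusted p from 0.0984 to 0.352, and also with a pseudocount of 0.1 (0.0527) or no filter on low values (0.0863). The call between the estrogens was lost without any 1 library other than 4-OHE1 replicate 2, at adjusted p from 0.0541 to 0.16, and also with no filter (0.0816) or only the 2 groups compared (0.0846).

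The expression table measured Msr1 on a transcript of 1455 bases and the authors' read tables on one of 3632 bases, which share their 5′ end and differ at the 3′ end. Reads on the shorter transcript came to 60.7% and 61.5% of those on the longer one under EtOH, 63.2% and 63.6% under E2 and 64.4% and 63.9% under 4-OHE1. The log2 changes from the 2 transcripts differed by at most 0.07. Of the 9 genes, 6 were measured on different transcripts in the 2 kinds of table, and for 5 of these the changes differed by less than 0.1. Olr1 was the exception, with a difference of 0.35.

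Of the class B receptors, Scarb1 fell under both estrogens, and Cd36 was called in no comparison by limma under both scalings but in 2 by edgeR. Scarb1 encodes SR-BI, the high-density lipoprotein receptor that moves cholesterol, and is annotated at chr5:125757457-125821464 on the minus strand. Its level was 29.1 and 29.2 RPKM in the EtOH libraries, 12.2 and 9.72 in the E2 libraries and 12.2 and 8.67 in the 4-OHE1 libraries. Every estrogen library lay below both EtOH libraries, and the 2 estrogen groups overlapped. The fall was by 1.16 on the log2 scale (SE 0.18; adjusted p = 0.0186) under E2 and by 0.99 (SE 0.18; adjusted p = 0.00942) under 4-OHE1. Scarb1 did not pass the threshold between the estrogens, with a log2 difference of 0.17, a 95% interval of -0.25 to 0.59 and an adjusted p of 0.802. The call under E2 was lost without EtOH replicate 1, EtOH replicate 2, E2 replicate 1 or E2 replicate 2, at adjusted p from 0.0991 to 0.2, and with no filter (0.0527). Under 4-OHE1 it was lost without EtOH replicate 1 (0.0877) or EtOH replicate 2 (0.0832), while the log2 change stayed between -1.42 and -0.78 over all alternatives.

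Cd36, the fatty acid translocase that also binds oxidised lipoproteins and dying cells, is annotated at chr5:17287508-17355610 on the minus strand. Its level was 619.7 and 616 RPKM under EtOH, 631 and 788 under E2 and 446 and 490.2 under 4-OHE1. The E2 libraries were above both EtOH libraries and the 4-OHE1 libraries below them as deposited. Per exon reads the 4-OHE1 libraries, at 605 and 684, lay on both sides of the EtOH libraries. By limma under both scalings, Cd36 was called in none of the 3 comparisons. Its log2 difference was 0.38 (95% interval 0.08 to 0.69; adjusted p = 0.333) for E2, 0.06 (-0.24 to 0.36) for 4-OHE1 and -0.33 (-0.63 to -0.02; adjusted p = 0.138) between the estrogens. As deposited the difference of 4-OHE1 from EtOH was -0.40, with an adjusted p of 0.0237 on that scale alone. From E2 it was -0.59, with an adjusted p of 0.0129 on the deposited scale alone. On the recovered reads, edgeR called Cd36 higher under E2 than under EtOH (adjusted p = 0.0449) and lower under 4-OHE1 than under E2 (adjusted p = 0.0434), and DESeq2 called neither (adjusted p = 0.102 and 0.142). Adipocytes and endothelial cells also make Cd36. The adipocyte list summed to 478.5 to 490.7 RPKM under EtOH, 784 to 785 under E2 and 968 to 969 under 4-OHE1. Fabp4, which macrophages also make, was 374 and 383 RPKM of it under EtOH, 554 and 559 under E2 and 620 and 636 under 4-OHE1. Of the 11 tested markers of this list, 5 were called higher and 0 lower under E2, and 9 higher and 0 lower under 4-OHE1. Over all genes, 1.75% were called higher under E2 and 5.74% under 4-OHE1. The endothelial list summed to 56.1 to 56.8, 44.3 and 55.7 to 62.8 RPKM in the same order, and per exon reads to 55.9 to 57, 49.5 to 51.8 and 75.5 to 87.6. The part of these cells in the Cd36 and Scarb1 values was not tested, and in bulk samples a change in the share of a cell type and a change in RNA per cell cannot be told apart.

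**Figure D3:**
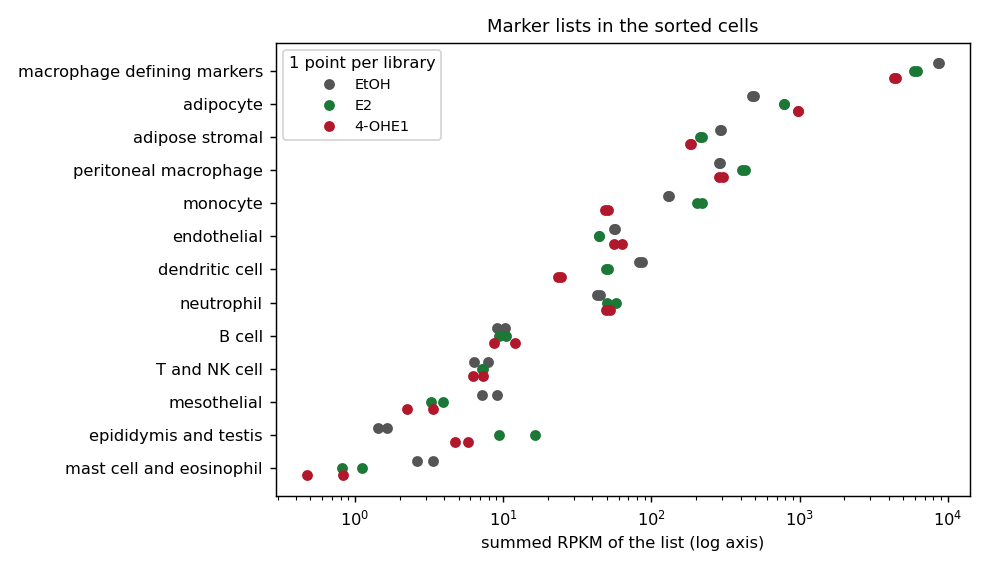
Summed RPKM of the 13 marker lists in each library. The x axis is logarithmic and each point is 1 library. The macrophage list is the highest in every library, the adipocyte list is higher in both estrogen groups than under EtOH, and the monocyte list is highest under E2 and lowest under 4-OHE1. Fabp4, which macrophages also make, is the largest part of the adipocyte sum in every library.

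The receptor kinases were highest under 4-OHE1. Mertk, the kinase with which macrophages bind and engulf dying cells, is annotated at chr2:128524733-128627924 on the plus strand. Its level was 24.7 and 24.3 RPKM in the EtOH libraries, 29.8 and 31.9 in the E2 libraries and 43.4 and 39.4 in the 4-OHE1 libraries. The 3 groups did not overlap and were ordered EtOH, E2, 4-OHE1 on both scales. Mertk rose under 4-OHE1 by 1.18 per exon reads (SE 0.10; adjusted p = 0.0022), and by 0.73 as deposited. It was higher under 4-OHE1 than under E2 by 0.68 (SE 0.10; adjusted p = 0.0333), and by 0.41 as deposited. Its difference of 0.51 between E2 and EtOH, with a 95% interval of 0.26 to 0.76, had an adjusted p of 0.0461 per exon reads and of 0.119 as deposited and was not called. The difference between the estrogens was not called without EtOH replicate 1, EtOH replicate 2, E2 replicate 1 or E2 replicate 2, at adjusted p from 0.0739 to 0.118, nor with only the 2 groups compared (0.106). On the recovered reads, edgeR (adjusted p = 0.0105) and DESeq2 (3.01e-04) called Mertk higher under E2 than under EtOH.

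Axl, the related kinase that is induced by interferon in many macrophages, is annotated at chr7:26541519-26573752 on the minus strand. Its level was 60.2 and 59.8 RPKM under EtOH, 53.0 and 57.7 under E2 and 65.8 and 67.0 under 4-OHE1. Both 4-OHE1 libraries were above the EtOH libraries and both E2 libraries below them as deposited, and per exon reads the E2 libraries, at 59.3 and 67.6, overlapped the EtOH range. By limma under both scalings, Axl was called in no comparison. For 4-OHE1 against EtOH the difference was 0.60 with an adjusted p of 0.00605 per exon reads, but 0.14 with an adjusted p of 0.209 as deposited. For 4-OHE1 against E2 it was 0.52 (95% interval 0.30 to 0.74), with an adjusted p of 0.0195 per exon reads and of 0.0734 as deposited. For E2 against EtOH it was 0.08 (95% interval -0.15 to 0.30; adjusted p = 0.769). On the recovered exon reads, edgeR and DESeq2 both called Axl higher under 4-OHE1. The adjusted p was 4.76e-04 in edgeR and 8.69e-12 in DESeq2 against EtOH, and 0.00388 and 1.84e-07 against E2. Gas6 and Pros1, the ligands, named here for that role and outside the rule for named genes, gave log2 differences of -0.20 and -0.43 for E2 and -0.14 and -0.55 for 4-OHE1, and of these only that of Pros1 under 4-OHE1 was called (adjusted p = 0.049). That call was lost without any 1 library other than 4-OHE1 replicate 1, at adjusted p from 0.0755 to 0.258, with a log2 change of -0.35 without 4-OHE1 replicate 2.

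The soluble members were Cd5l and Mfge8. Cd5l, a secreted protein of tissue macrophages that belongs to the scavenger receptor cysteine-rich family and is also called AIM, is annotated at chr3:87161803-87174996 on the plus strand. Its level was 10.3 and 10.4 RPKM in the EtOH libraries, 19.3 and 15.3 in the E2 libraries and 1.07 and 0.066 in the 4-OHE1 libraries. The 3 groups did not overlap, with E2 highest and 4-OHE1 lowest. These are 461 and 876 reads under EtOH, 277 and 241 under E2 and 20 and 1 under 4-OHE1. Per 1000000 exon reads, Cd5l had 24.7 (95% Poisson interval 22.5 to 27.01) and 24.8 (23.2 to 26.5) under EtOH, against 3.47 (2.12 to 5.36) and 0.222 (0.0056 to 1.23) under 4-OHE1, intervals that cover counting error only. Both 4-OHE1 libraries stayed far below the other 4, and they differed from each other by more than counting error.

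Cd5l fell by 2.79 on the log2 scale under 4-OHE1 (SE 0.37; adjusted p = 0.00342), the 44th largest fall of the 10950 genes tested, and its log2 change was -4.26 with a pseudocount of 0.1 in place of 1. Against E2 the difference was -3.66 (SE 0.37; adjusted p = 0.00384), the 11th largest fall. Under E2 against EtOH, Cd5l did not pass the threshold, with a log2 difference of 0.87, a 95% interval of -0.01 to 1.75 and an adjusted p of 0.284. That fit takes its spread from all 6 libraries, the 4-OHE1 ones included. By limma with only the 2 groups compared, Cd5l was called higher under E2 (adjusted p = 0.0222). On the recovered reads, edgeR (adjusted p = 0.207) and DESeq2 (0.833) did not call it. The difference between the estrogens had an adjusted p of 0.0607 without E2 replicate 1 and of 0.0509 without E2 replicate 2, and its call was lost in both cases. Cd5l and Marco are known from resident macrophages, peritoneal ones included. The peritoneal macrophage list summed to 287.5 to 291.4 RPKM under EtOH, 408 to 426 under E2 and 284 to 303 under 4-OHE1, or 385 to 422 under 4-OHE1 per exon reads. Lyve1 made up 256 to 337 RPKM of it, and without Lyve1 the sum was 31.3 to 32.5 RPKM under EtOH, 89 to 101 under E2 and 18.4 to 20.2 under 4-OHE1. Of the 8 tested markers of this list, 5 were called higher under E2 and 5 were lower under 4-OHE1 than under E2. None was called by limma under 4-OHE1 against EtOH. Over all genes, 1.75% were higher under E2, 7.14% were lower under 4-OHE1 than under E2, and 19.6% were called under 4-OHE1 against EtOH. For 4-OHE1 against EtOH, 0 of the 8 had an unadjusted p under 0.05 in both scalings, while edgeR and DESeq2 on the recovered reads each called 3 of 9. Those 3 are among Lyve1, Prg4, Selp and Serpinb2, the 4 with an unadjusted p under 0.05 there. Lyve1 stood at 256 and 259 RPKM under EtOH and 264 and 284 under 4-OHE1, and Prg4 at 3.52 and 4.15 against 2.21 and 1.83. Gata6, the defining factor of peritoneal macrophages, stayed between 0.089 and 0.804 RPKM in all 6 libraries, and Serpinb2 and Selp were listed at 0 in both 4-OHE1 libraries. The monocyte list summed to 129 to 131, 203 to 219 and 48.3 to 50.6 RPKM in the same order of groups. Within it, Fn1 went from 66 and 68 RPKM under EtOH to 132 and 114 under E2, while Ccr2 went from 35.3 and 35.2 to 19.8 and 26.4. The part of these cells in the Cd5l and Marco values was not tested.

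**Figure D4:**
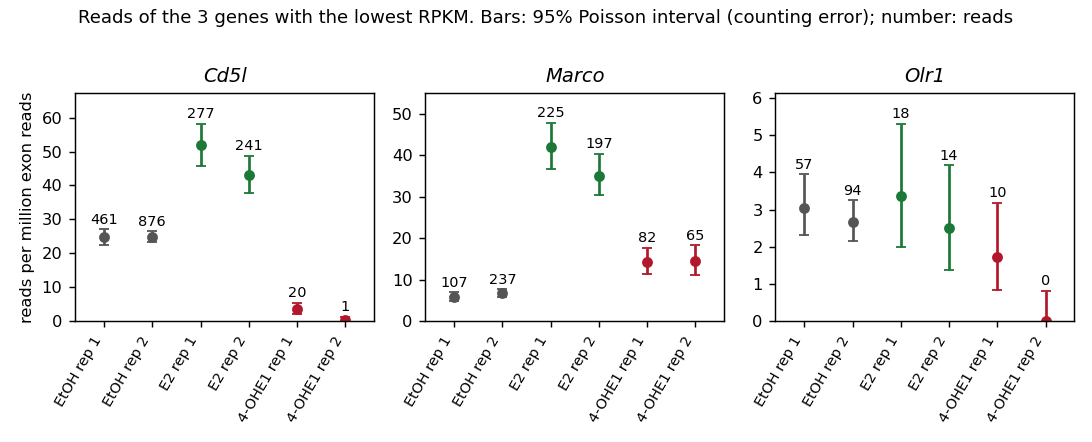
Reads of Cd5l, Marco and Olr1 per 1000000 exon reads in each library. The number at each point is the reads counted, and bars are 95% Poisson intervals, which cover counting error only. The 4-OHE1 libraries hold 20 and 1 reads of Cd5l, against 461 and 876 in the EtOH libraries.

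Mfge8, the bridge between phosphatidylserine and integrins, is annotated at chr7:86278654-86293946 on the minus strand. Its level was 34.6 and 32.3 RPKM under EtOH, 19.6 and 20.1 under E2 and 25.1 and 22.1 under 4-OHE1. As deposited both estrogen groups lay below EtOH, and per exon reads the 4-OHE1 libraries, at 34.1 and 30.8, overlapped the EtOH libraries. Mfge8 fell by 0.54 under E2 (SE 0.11; adjusted p = 0.0472). Under 4-OHE1 the difference from EtOH was -0.04 (95% interval -0.31 to 0.23; adjusted p = 0.809) per exon reads. As deposited it was -0.49, with an adjusted p of 0.0139 on that scale alone, and it was not called. Between the estrogens the difference of 0.49 (95% interval 0.23 to 0.76) had an adjusted p of 0.0378 per exon reads and of 0.177 as deposited. It was not called. The call under E2 was lost without EtOH replicate 1, EtOH replicate 2, E2 replicate 1 or E2 replicate 2, at adjusted p from 0.149 to 0.528, and with no filter (0.0641). Between the estrogens, edgeR and DESeq2 called Mfge8 higher under 4-OHE1 (adjusted p = 0.03 and 0.0294). Stromal cells also make Mfge8, and the adipose stromal list summed to 290.1 to 294.5 RPKM under EtOH, 213 to 220.5 under E2 and 182.5 to 185 under 4-OHE1, or per exon reads to 291 to 294, 247 to 249.2 and 251 to 254.5. Of the 10 tested stromal markers, 3 were called lower and 0 higher under E2, and 5 lower and 1 higher under 4-OHE1. Over all genes, 2.17% were lower and 1.75% higher under E2, and 13.9% and 5.74% under 4-OHE1. Dcn made up 82.4 to 114 RPKM of the deposited sum. The part of stromal cells in the Mfge8 values was not tested.

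Olr1, the lectin-like receptor for oxidised lipoproteins, was the lowest of the 9 genes and is annotated at chr6:129435266-129457183 on the minus strand. Its level was 0.685 and 0.563 RPKM under EtOH, 0.839 and 0.595 under E2 and 0.357 and 0 under 4-OHE1. Both 4-OHE1 libraries lay below the other 4. The reads were 57 and 94 under EtOH, 18 and 14 under E2, and 10 and 0 under 4-OHE1, where the 3 reads that a count of 0 allows correspond to 0.664 reads per 1000000 exon reads and the two-sided 95% Poisson interval, which is wider, reaches 0.817. In edgeR, which kept Olr1 in its own filter, the log2 difference was -1.64 for 4-OHE1 against EtOH, with an adjusted p of 0.277, and no change was called. The 4-OHE1 libraries differed from each other, since the Poisson interval of the first, 0.832 to 3.19 reads per 1000000 exon reads, lies above that of the second, which ends at 0.817, and overlaps those of both EtOH libraries.

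The matched doses of the estrogens allowed 8 comparisons of 4-OHE1 with E2, with p-values adjusted over all 10950 genes. The compound with the added ring hydroxyl and the ketone gave higher Mertk and lower Cd5l, Marco and Msr1, as above. For Scarb1, Axl, Mfge8 and Cd36 the difference was not called, and the interval of Scarb1 was the only one of these 4 that held 0. All comparisons with EtOH share the EtOH libraries, so the values of both estrogens are given side by side only. In the authors' deposited table, 7 of the 9 genes had an adjusted p under 0.05 under E2 and 4 under 4-OHE1. The share of all genes called in the authors' test was not computed, so these counts have no background. The shares given above are from another test. Under E2 the authors' test gave Mertk a log2 change of 0.50 (adjusted p = 8.8e-05), Cd5l 0.91 (adjusted p = 3.7e-07) and Cd36 0.36 (adjusted p = 0.0257), and these 3 were not called here. Under 4-OHE1 the authors' deposited table gave Axl 0.53 (adjusted p = 0.00118), also not called here, and Marco 1.13 (adjusted p = 0.107), which was called here.

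The 6 lists of related genes give the setting of the members. Their counts stand against 1.75% of all genes called higher and 2.17% lower under E2, and 5.74% higher and 13.9% lower under 4-OHE1, and nothing particular to a list is read from them. Of 21 tested other scavenger receptors, 2 rose and 4 fell under E2, and 3 rose and 8 fell under 4-OHE1, with a median log2 change of 0.00 and -0.04 against -0.00 and -0.04 over all genes. Cd163, the haemoglobin scavenger receptor, stood at 179 ± 6.33 RPKM under EtOH, 292 ± 10.3 under E2 and 433 ± 9.94 under 4-OHE1 (SD, n = 2), and rose by 0.89 (adjusted p = 0.00314) and 1.73 (adjusted p = 7.65e-05). Its rise under E2 was not called without EtOH replicate 1 (adjusted p = 0.0653). Lgals3, which encodes galectin-3, fell from 1406 ± 32.0 RPKM to 714 ± 30.1 under E2 and 290.2 ± 12.7 under 4-OHE1, with log2 changes of -0.78 and -1.81. Vsig4, the complement receptor of resident macrophages, was 24.9 RPKM under EtOH and 31.3 under E2, where it was not called, and fell to 6.37 under 4-OHE1 (log2 change -1.41, adjusted p = 0.00141).

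Among 21 tested phosphatidylserine receptors and bridging proteins, 1 rose and 5 fell under E2, and 1 rose and 9 fell under 4-OHE1, with medians of -0.08 and -0.39. Trem2, the lipid receptor of lipid-laden macrophages, fell from 299.7 ± 10.9 RPKM to 116 ± 8.13 under E2 and 61.8 ± 4.2 under 4-OHE1, with log2 changes of -1.17 and -1.81. Anxa1, a phosphatidylserine-binding protein released in resolving inflammation, fell from 364 ± 10.3 to 114 ± 3.15 and 53.4 ± 4.83 RPKM. Thbs1, a matrix protein that bridges dying cells to Cd36, was the gene that rose under E2. It stood at 3.89 RPKM under EtOH, 31.8 under E2 and 4.08 under 4-OHE1, with a log2 change of 2.93 for E2 (adjusted p = 0.00201). Without E2 replicate 1 the rise of Thbs1 had an adjusted p of 0.0528. Of 28 tested engulfment and phagosome genes, 1 rose and none fell under E2, and 2 rose and 7 fell under 4-OHE1, with medians of -0.05 and -0.06. The 1 call of 28 under E2 is near the 3.93% of all genes, and under 4-OHE1 the calls lean to lower values as they do over all genes, with 13.9% lower and 5.74% higher. Uvrag, which acts in phagosome maturation, rose from 18.4 ± 0.553 RPKM under EtOH to 45.4 ± 3.37 under 4-OHE1, by 1.70 on the log2 scale (adjusted p = 4.21e-04). Ucp2, a mitochondrial carrier linked to engulfment, rose by 1.07.

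Of 23 tested genes of lipid handling, 1 rose and 8 fell under E2, and 1 rose and 9 fell under 4-OHE1, with medians of -0.08 and -0.23. Lpl, lipoprotein lipase, fell from 673 ± 2.82 RPKM to 232 ± 18.2 under E2 and 83.3 ± 0.829 under 4-OHE1. Abcg1, which exports cholesterol, stood at 15.7, 5.08 and 2.68 RPKM and fell by 1.29 and 1.83, the former not called without EtOH replicate 1 (adjusted p = 0.199), EtOH replicate 2 (0.175), E2 replicate 1 (0.0785) or E2 replicate 2 (0.0603). Fabp4, a fatty acid carrier of adipocytes and macrophages that the adipocyte list also holds, was the gene that rose, by 0.75 and 1.19, the former not called without EtOH replicate 1 (adjusted p = 0.0722) or EtOH replicate 2 (0.0623).

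Of 21 tested transcription factors tied to these receptors, 3 rose and 2 fell under E2, and 3 rose and 7 fell under 4-OHE1, with medians of -0.11 and -0.25. Maf rose by 1.13 under 4-OHE1 (adjusted p = 6.33e-04), and Spi1 fell by 0.40 (adjusted p = 0.00686). The fall of Spi1 was not called when EtOH replicate 1 or EtOH replicate 2 was left out. Nr1h3, the LXR gene whose product induces Mertk and Abcg1 in macrophages, stood at 21.3 ± 0.466 RPKM under EtOH, 11.8 ± 0.612 under E2 and 6.07 ± 4.01 under 4-OHE1, and Pparg, which induces Cd36, at 22 ± 1.22, 15.8 ± 2.33 and 7.57 ± 3.03. Under 4-OHE1 they fell by 1.39 (adjusted p = 0.0365) and 1.06 (adjusted p = 0.0269). Without any 1 of the EtOH and E2 libraries neither fall was called, at adjusted p from 0.0952 to 0.157 for Nr1h3 and from 0.0604 to 0.151 for Pparg. Without 4-OHE1 replicate 1 or replicate 2, the log2 change was -2.02 or -0.77 for Nr1h3 and -1.42 or -0.70 for Pparg. Of 11 tested genes of receptor shedding and signalling, none rose and 2 fell under E2, and none rose and 4 fell under 4-OHE1, with medians of -0.19 and -0.24. Socs3, a feedback inhibitor of cytokine signalling, fell from 106 ± 1.82 RPKM to 30.1 ± 4.82 and 4.86 ± 0.289. Summed over the 6 lists, with genes in 2 lists counted in each, the 29 calls under E2 became 8 without EtOH replicate 1, 9 without EtOH replicate 2, 11 without E2 replicate 1 and 15 without E2 replicate 2, and 44 and 43 without 4-OHE1 replicate 1 or 2. The 54 calls under 4-OHE1 became 29 and 27 without EtOH replicate 1 or 2, and the 31 between the estrogens became 18 without either EtOH library, 11 without E2 replicate 1 and 14 without E2 replicate 2.

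Between the estrogens, where 2.5% of all genes were higher and 7.14% lower, 3 of 21 other scavenger receptors were higher and 5 lower under 4-OHE1 than under E2. None of the 21 phosphatidylserine genes or the 23 lipid genes was higher, and 6 of each were lower. Of 28 engulfment genes 1 was higher and 3 were lower, of 21 transcription factors 4 were lower, and of 11 shedding and signalling genes 1 was higher and 2 were lower.

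**Figure D5:**
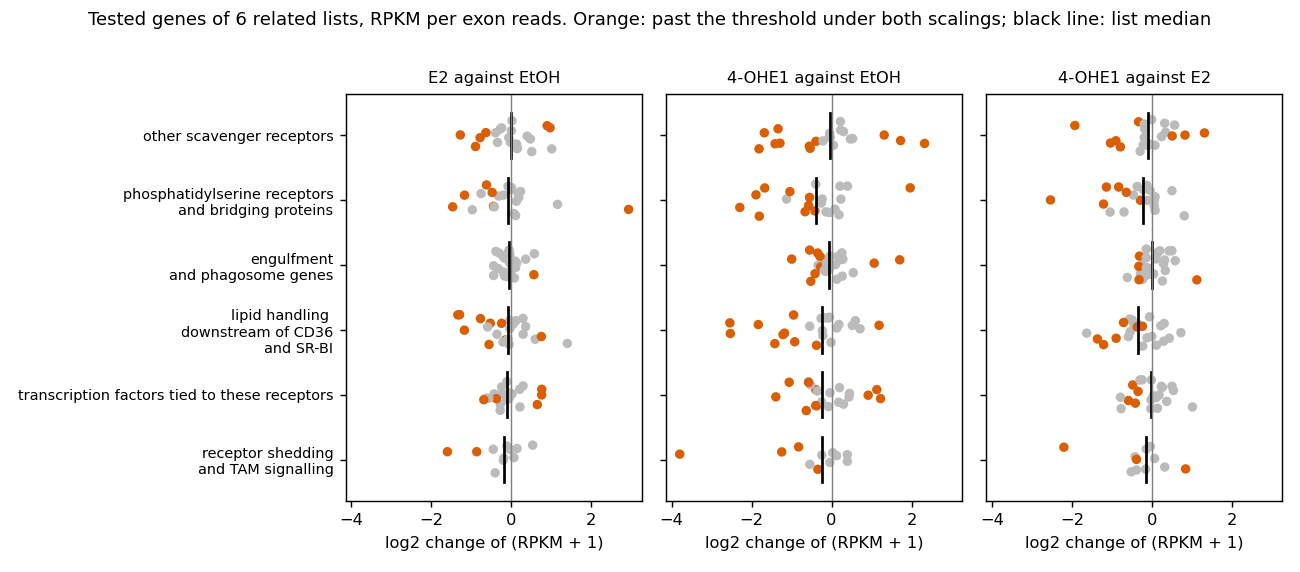
Log2 change of every tested gene of the 6 related lists in the 3 comparisons. The x axis is the difference of log2(RPKM + 1) per exon reads, each point is 1 gene, orange marks called genes and black lines are list medians. In each panel, more genes are called left of 0 than right of it in the scavenger receptor, phosphatidylserine, lipid, and shedding and signalling lists. The same holds over all genes tested.

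By the fixed measure, the root-mean-square difference of centred log2 values over the 6 libraries, the gene nearest to Mertk among 7090 was Jmjd1c at 0.029, and the one nearest to Axl was Zfand3 at 0.0271. Trmt6 was nearest to Cd36 at 0.044, Dck to Mfge8 at 0.0429, Card6 to Msr1 at 0.0846 and Ckb to Scarb1 at 0.0957. The 2 genes with the largest changes had looser neighbours, Marco with Padi4 at 0.25 and Cxcl13 at 0.318, and Cd5l with Cxcl10 at 0.405 and Cxcl2 at 0.436.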

How the data were processed

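The expression table holds RPKM values that the authors made with HOMER from exon reads on mm9, condensed to 1 transcript per gene, per the file headers. The submitters' processing notes also name STAR, DESeq2 and edgeR, with no versions. The 2 comparison tables deposited by the authors hold scaled exon-read signal per library, log2 fold changes of each estrogen over EtOH, p-values and adjusted p-values, made with edgeR per the names of the deposited tables. All 119614 signal values above 0 came out as whole reads within 0.05 after 1 factor per library, which gave reads, total tags and exon shares. Exon reads ranged from 4515276 to 35293924 per library, and the deeper EtOH libraries give the more precise values.

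RPKM values are not counts, so the test was limma-trend (limma 3.58.1, R 4.3.3) on log2(RPKM + 1) for the 10950 genes with a mean of at least 1 RPKM, with all 6 libraries in 1 fit and Benjamini-Hochberg adjustment over all genes, two-sided. It was run as deposited and per exon reads, scaled to the mean exon share of the EtOH libraries, and 95% intervals come from the same fit. The scripts were tested on simulated data. Alternatives were a pseudocount of 0.1, no filter, either scaling alone, edgeR 4.0.16 and DESeq2 1.42.0 on the recovered reads, only the 2 groups compared, a replicate block and leaving out each library.

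The members, the lists and the both-scalings rule were chosen with earlier results of these data known. The named genes are all members, from each list up to 3 genes called each way with a mean of at least 5 RPKM and the largest log2 change, of which some are printed, and the 2 nearest genes to each member. Antisense and overlapping genes were looked for in the tables' coordinates, and none overlapped a member.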

Additional observations from a re-analysis of the deposited data

How the results depend on the processing

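The calls of Marco under E2 and of Mertk and Cd5l under 4-OHE1 were made under all 14 alternatives. With no filter on low values, 1 member in place of 4 was called for E2 against EtOH. With a pseudocount of 0.1 it was 3, without Msr1. Between the estrogens, edgeR called 7 members and the fit of only the 2 groups compared called 2. Leaving out 1 library gave 1 to 6 called members for E2, 2 to 4 for 4-OHE1 and 0 to 4 between the estrogens. Without E2 replicate 1, where limma called 0 members between the estrogens, 5 of 8 had an unadjusted p under 0.05, and Cd5l had an adjusted p of 0.0607 and Marco of 0.0643. Over all genes, the 430 calls for E2 became 789 as deposited alone, 919 in edgeR, 1076 in DESeq2, 1072 with only the 2 groups and 50 to 1067 with 1 library left out. The 2150 calls for 4-OHE1 became 4957, 3523 and 3327 as deposited alone, in edgeR and in DESeq2, and 593 to 3226 with 1 library left out. The 1056 calls between the estrogens became 2436, 1748, 1821 and, with only the 2 groups, 411, and 179 to 2292 with 1 library left out. Among the members, the sign turned only for differences that were not called. As deposited, the log2 difference was -0.12 for Axl under E2, -0.31 for Msr1 and -0.40 for Cd36 under 4-OHE1, and -0.074 for Scarb1 between the estrogens. With 1 library left out it ranged from -0.017 to 0.17 for Axl under E2, from -0.0041 to 0.28 for Msr1, from -0.03 to 0.15 for Cd36 and from -0.11 to 0.028 for Mfge8 under 4-OHE1, and from -0.0395 to 0.38 for Scarb1 between the estrogens. The cause was not tested, beyond the lower exon share that the deposited scale carries and the fewer libraries in such fits.

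Deviations of same-numbered libraries from their group means correlated across 10950 genes at -0.0088, -0.02 and 0.0105, so no shared deviation was seen. Same-numbered libraries of the 3 groups also carry a common label, whose meaning is not given. Whether they were handled together cannot be told. With the replicate number as a block, 330 genes were called for E2, 1911 for 4-OHE1 and 856 between the estrogens, with 3 members called in each, without Mfge8, Marco and Mertk respectively. At 4515276 exon reads, the 3 reads that a count of 0 allows correspond to 0.664 reads per 1000000 exon reads, which limits what Olr1 can show in that library.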
